A study of Mus musculus with 5 samples.

Results

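The SoxB, SoxE and SoxF genes encode transcription factors with a high-mobility-group (HMG) DNA-binding domain, and 10 of them were followed here through H3K27me3 peak lists of mouse embryonic fibroblasts (MEFs): Sox1, Sox2, Sox14 and Sox21 of SoxB, Sox8, Sox9 and Sox10 of SoxE, and Sox7, Sox17 and Sox18 of SoxF. The genes were chosen by name as members of these 3 subgroups, and Sox3, the remaining SoxB gene, is described with the other Sox genes. The choice was made with earlier results of these data known, so the comparisons with all genes below are a description and not a test. Of the 10, 9 were found among the 22350 protein-coding genes of the GENCODE vM1 annotation of mm9 on chromosomes 1 to 19 and X. Sox1 had no record of its own there and was placed by its RefSeq promoter sequence. Counts below are therefore over 9 genes, and the values of Sox1 are given beside them.

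SoxB proteins are best known from neural progenitors, SoxE proteins from the neural crest, glia, cartilage and testis, and SoxF proteins from endothelium and, for Sox17, endoderm. H3K27me3 is the mark that Polycomb Repressive Complex 2 (PRC2) places on histone H3, and genes of developmental transcription factors that a cell type does not use are typical carriers of it. Stretches of DNA rich in CG dinucleotides, called CpG islands, lie at many such genes and are sites at which PRC2 is recruited.

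The series profiled H3K27me3 by chromatin immunoprecipitation and sequencing of mononucleosomes in MEFs that carried a floxed allele of Eed, a PRC2 subunit, and the peak lists of 3 of its 5 libraries were used. All 3 lines carried this allele and received a lentivirus for stable expression of a transgene: H3.3K27R, in which arginine replaces the lysine that PRC2 methylates, H3.3K27M, in which methionine replaces it, or hEZHIP, the human form of a PRC2-binding protein of ependymoma. By the study's methods the cells came from an embryo with loxP sites in Eed, the vector had an EF1a promoter and a puromycin marker, and transduced cells were selected with puromycin. The cells also kept their own histone H3, and no label says that a line was a single clone. The parental line and the EED knockout clone were not analysed here. K27M and EZHIP inhibit PRC2, and the comparison asked what was left of H3K27me3 at the Sox genes in these cells, with the K27R list as the reference. There was 1 library per line, so that no difference could be set against replicate spread and all comparisons describe these libraries. The lists held positions only, and depth was unknown. In bulk chromatin, a peak that is missing from a list because fewer cells carried the mark cannot be told apart from one that is missing because each cell carried less of it.

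Expression was not measured in these files, so the cell type could be checked only through the mark. The start sites of all but 1 of 14 fibroblast marker genes, among them Col1a1, Col1a2, Vim and Thy1, lay in no K27R region. Pdgfra was the exception and lay in peaks of all 3 lists. Of 8 neural markers, Sox2 among them, 5 lay in K27R regions, and so did 3 of 6 endothelial markers. These were 7.14% of the fibroblast, 62.5% of the neural and 50% of the endothelial markers, beside 30.1% of all protein-coding genes. The lists are short, and the differences were not tested.

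The 200 bases before the start site are shown for 5 of the genes, because CG density is a sequence feature that their choice did not use and in which they differed. Sox2, Sox8 and Sox18 had the most cover of the annotated genes of their subgroups when the kb within 50 kb of the start site were summed over the K27M and EZHIP lists, Sox1 was placed by its sequence, and Sox9 was the gene without an EZHIP peak. Sequences are from the mm9 genome and read 5′ to 3′ on the strand of the gene, and capitals mark CG dinucleotides.
Sox1, chr8:12395319-12395518, plus strand: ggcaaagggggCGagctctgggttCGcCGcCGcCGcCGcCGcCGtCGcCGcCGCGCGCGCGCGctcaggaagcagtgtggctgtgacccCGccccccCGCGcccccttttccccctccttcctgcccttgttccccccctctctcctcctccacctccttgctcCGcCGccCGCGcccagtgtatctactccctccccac
Sox2, chr3:34548727-34548926, plus strand: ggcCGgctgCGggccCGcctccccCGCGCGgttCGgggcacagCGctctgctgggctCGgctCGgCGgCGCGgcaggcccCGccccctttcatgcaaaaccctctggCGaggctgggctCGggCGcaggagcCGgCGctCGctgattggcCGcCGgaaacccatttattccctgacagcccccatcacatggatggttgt
Sox8, chr17:25707632-25707831, minus strand: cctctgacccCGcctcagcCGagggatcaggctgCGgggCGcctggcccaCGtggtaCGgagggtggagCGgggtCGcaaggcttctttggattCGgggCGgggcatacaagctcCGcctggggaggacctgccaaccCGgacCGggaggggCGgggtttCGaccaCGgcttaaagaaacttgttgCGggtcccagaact
Sox18, chr2:181406346-181406545, minus strand: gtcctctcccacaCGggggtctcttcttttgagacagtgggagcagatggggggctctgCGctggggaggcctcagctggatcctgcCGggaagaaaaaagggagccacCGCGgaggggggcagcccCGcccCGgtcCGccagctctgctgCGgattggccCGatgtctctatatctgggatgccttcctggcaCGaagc
Sox9, chr11:112643338-112643537, plus strand: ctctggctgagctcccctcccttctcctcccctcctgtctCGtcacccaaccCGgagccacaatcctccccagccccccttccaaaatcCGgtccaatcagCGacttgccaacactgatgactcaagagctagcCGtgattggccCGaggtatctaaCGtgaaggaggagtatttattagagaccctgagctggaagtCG

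These windows held 23 CG dinucleotides at Sox1, 22 at Sox2, 17 at Sox8, 11 at Sox18 and 8 at Sox9. The same window held 22 at Sox7, 15 at both Sox14 and Sox21, 8 at Sox17 and 6 at Sox10. The median over all 22350 protein-coding genes was 7. It was 11.5 over the 1476 genes whose start site lay in both a K27M and an EZHIP peak, and 3 over the 4476 genes whose start site lay in a K27R region and in neither kind of peak. Only 11.0% of genes had at least as many CG dinucleotides as Sox2 or Sox7, whereas 49.0% had at least as many as Sox9 or Sox17 and 56.0% as many as Sox10. The windows of the SoxB genes, Sox7 and Sox8 thus held 15 or more, and those of Sox9, Sox10 and Sox17 were near the median gene, with Sox18 between.

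In K27R cells each of these Sox genes was covered by H3K27me3, and in K27M and EZHIP cells nearly all kept a peak at the start site. The start sites of 9 of 9 annotated genes lay in K27R regions, compared with 30.1% of all protein-coding genes. The same 9 lay in K27M peaks, compared with 9.02% of all genes and with 29.9% of the 6735 genes whose start site was in a K27R region. In the EZHIP list 8 of 9 lay in peaks, compared with 7.73% of all genes and 25.6% of those in K27R regions. Sox9 was the gene that lacked an EZHIP peak. Sox1 lay in peaks of all 3 lists.

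**Figure D1:**
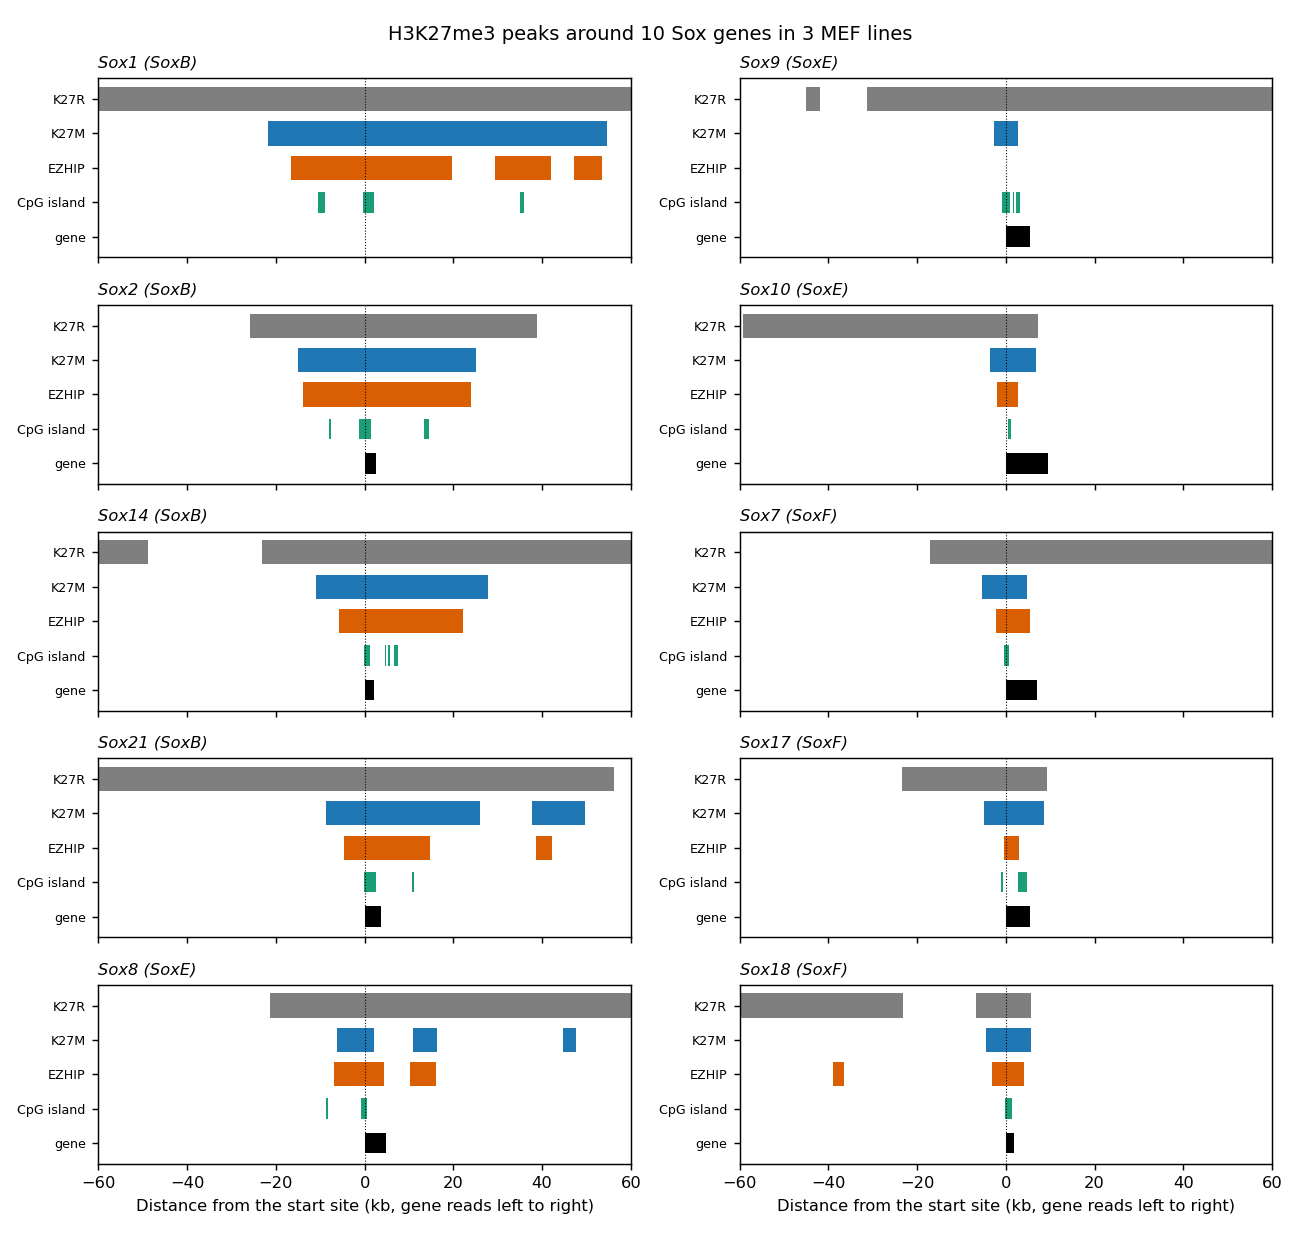
Each panel plots the peaks of the K27R, K27M and EZHIP lists, the CpG islands inside the K27R region and the annotated gene body against the distance from the start site in kb, with the gene read from left to right (no gene body is drawn for Sox1). K27M and EZHIP peaks sat over the start site within wider K27R regions in all genes except Sox9, which had no EZHIP bar.

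The SoxB genes had the widest remaining peaks. Sox2, which marks pluripotent and neural stem cells, lay in a K27R region of 64.8 kb (chr3:34523001-34587800), a K27M peak of 40.2 kb and an EZHIP peak of 37.8 kb. Sox14, a repressor of the SoxB2 branch that is expressed in sets of interneurons, lay in a K27R region of 155.8 kb (chr9:99644001-99799800), a K27M peak of 38.8 kb and an EZHIP peak of 28.0 kb. Sox21, the other SoxB2 repressor, which opposes SoxB1 proteins in neural differentiation, lay in a K27R region of 146.8 kb (chr14:118580001-118726800), a K27M peak of 34.8 kb and an EZHIP peak of 19.4 kb. The 3 K27M peaks were thus of nearly the same width, although the K27R region of Sox2 was much narrower than those of Sox14 and Sox21. Among the 2015 genes with the start site in a K27M peak, 79.2% to 82.4% lay in narrower peaks than these. Among the 1728 genes in EZHIP peaks, 80.4% lay in a narrower peak than Sox21, 87.9% than Sox14 and 92.6% than Sox2.

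Sox1, a marker of the neural plate, matched mm9 at a single place, with the 300 bases of its RefSeq promoter (GRCm38.p6 assembly) at chr8:12395269-12395568 on the plus strand. It lay in a K27R region of 798.8 kb (chr8:11833801-12632600), a K27M peak of 76.4 kb and an EZHIP peak of 36.2 kb. These were the widest K27R and K27M values of the 10 genes. The place is inside Gm5607, an annotated protein-coding gene on the same strand whose own start site, 9.75 kb upstream, lay in the same 3 peaks. The values therefore belong to the place and not to Sox1 alone.

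The SoxB peaks reached farther past the start site than before it. In the K27M list they began 8.75 kb (Sox21), 10.9 kb (Sox14), 15.1 kb (Sox2) and 21.7 kb (Sox1) upstream and ended 26.1, 27.9, 25.1 and 54.7 kb downstream of it. In the EZHIP list they began 4.75, 5.74, 13.9 and 16.5 kb upstream and ended 14.7, 22.3, 23.9 and 19.7 kb downstream, in the same order. The annotated gene bodies are 2.46 kb (Sox2), 2.02 kb (Sox14) and 3.80 kb (Sox21) long, so that most of each peak lay in flanking DNA. All 3 gene bodies were covered to 100% in all 3 lists.

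The SoxE genes kept narrower peaks than the 4 SoxB genes and, at Sox9, a peak in K27M only. Sox8, which acts with the other SoxE genes in neural crest and Sertoli cells, lay in a K27R region of 316.8 kb (chr17:25412201-25729000), a K27M peak of 8.2 kb and an EZHIP peak of 11.4 kb. Sox10, which directs glial and melanocyte fates in the neural crest, lay in a K27R region of 66.6 kb (chr15:78987601-79054200), a K27M peak of 10.4 kb and an EZHIP peak of 4.8 kb. Sox9, which drives cartilage and testis development, lay in a K27R region of 93.2 kb (chr11:112612201-112705400) and a K27M peak of 5.4 kb. Sox9 had the narrowest K27M peak of all 10 genes. Of genes in K27M peaks, 20.2% lay in narrower ones than Sox9, 35.7% than Sox8 and 45.0% than Sox10. Of genes in EZHIP peaks, 63.1% lay in narrower ones than Sox8 and 21.5% than Sox10.

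The gap at Sox9 was a long one. Its nearest EZHIP peak was 1714 kb from the start site, and none lay within 500 kb on either side, where the K27R list had 5 regions and the K27M list had only the peak at the start site. Among the 2015 genes with the start site in a K27M peak, 26.7% had none in an EZHIP peak, and 6.15% had no EZHIP peak within 500 kb. Sox9 also had 3 CpG islands in its K27R region, of 1796, 259 and 966 bp, and 3.02 kb of island within 5 kb of the start site, more than any other of the 10 genes. K27M peaks held all of the first pair and 387 bp of the last, while EZHIP peaks held none of them. Whether the EZHIP list lacks the peak through depth or through the settings of the caller was not tested.

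The SoxF genes had K27M peaks of about the width seen at Sox10. Sox7, expressed in early endothelium and in extraembryonic endoderm, lay in a K27R region of 170.2 kb (chr14:64545401-64715600), a K27M peak of 10.0 kb and an EZHIP peak of 7.6 kb. Sox17, a determinant of endoderm and of arterial endothelium, lay in a K27R region of 32.8 kb (chr1:4477201-4510000), a K27M peak of 13.6 kb and an EZHIP peak of 3.2 kb. Sox18, which directs lymphatic endothelial fate, lay in a K27R region of 12.4 kb (chr2:181400601-181413000), a K27M peak of 10.2 kb and an EZHIP peak of 7.2 kb. At Sox18 the K27M peak thus spanned most of a narrow K27R region, with both ending 5.74 kb downstream of the start site. The EZHIP peak of Sox17 began only 0.306 kb upstream of the start site, and just 9.49% of genes in EZHIP peaks lay in narrower ones.

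Between the subgroups, the widths of the peaks as listed at the 4 SoxB genes did not overlap with those of the other genes in either inhibitor list. In the K27M list these were 34.8 to 76.4 kb wide and the SoxE and SoxF peaks 5.4 to 13.6 kb. In the EZHIP list they were 19.4 to 37.8 kb against 3.2 to 11.4 kb. With peaks up to 10000 bp apart merged, the EZHIP separation no longer held. The EZHIP peak of Sox8 then ran from 6.97 kb upstream to 16.0 kb downstream of the start site, wider than the 19.4 kb at Sox21. In the K27R list the subgroups overlapped, with 64.8 to 798.8 kb for SoxB and 12.4 to 316.8 kb for the others. Over the 9 annotated genes the median width in the K27R list was 93.2 kb, that in the K27M list 10.4 kb and, for 8 genes, that in the EZHIP list 9.5 kb. The medians over all genes with the start site in the list were similar, with 96.8, 11.8 and 8.4 kb. The wide remaining peaks were thus those of these 4 SoxB genes and not of the Sox genes as a whole. Such widths were not particular to them. Of all genes in K27M peaks, 79.2% lay in narrower ones than Sox21, and of those in EZHIP peaks 80.4% did. Sox3, the SoxB gene outside the 10, had a K27M peak of 16.6 kb and no EZHIP peak over the start site. The split between the 4 SoxB genes and the others was seen after the values were known and was not tested.

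**Figure D2:**
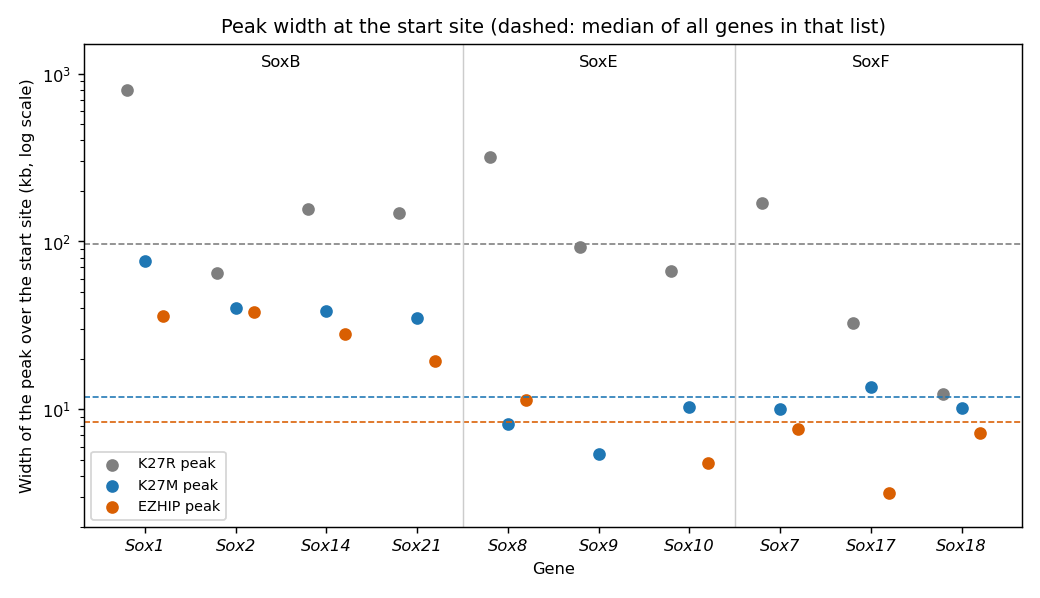
The width of the peak over the start site in kb, on a log axis, is plotted for each gene in each list (1 library per list, so no error bars), and dashed lines give the median of all protein-coding genes with the start site in that list. The K27M and EZHIP points of the 4 SoxB genes lie above those of the SoxE and SoxF genes, and Sox9 has no EZHIP point.

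The share of the K27R region still covered, summed over all peaks in it, did not follow the subgroups. For SoxB, K27M peaks covered 62.0% of the K27R region at Sox2, 31.9% at Sox21, 27.7% at Sox14 and 16.98% at Sox1, and EZHIP peaks covered 58.3%, 15.7%, 23.0% and 12.4%. For SoxE, K27M peaks covered 54.1% at Sox8, 15.6% at Sox10 and 5.79% at Sox9, and EZHIP peaks covered 58.9%, 7.21% and 0%. For SoxF, K27M peaks covered 82.3% at Sox18, 41.5% at Sox17 and 5.88% at Sox7, and EZHIP peaks covered 58.1%, 9.76% and 4.47%. Each subgroup thus held 1 gene with over 50% of its K27R region covered in both lists and others with far less. The medians over the 9 annotated genes were 31.9% in K27M and 15.7% in EZHIP. Together their K27R regions held 1059.4 kb, of which K27M peaks covered 351.2 kb and EZHIP peaks 306 kb. The region of Sox8 alone gave 171.4 kb of this K27M cover and 186.6 kb of this EZHIP cover. Over the whole lists, K27R regions covered 582.1 Mb, K27M peaks 51.0 Mb and EZHIP peaks 36.5 Mb. The share per region is not given here for other genes.

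**Figure D3:**
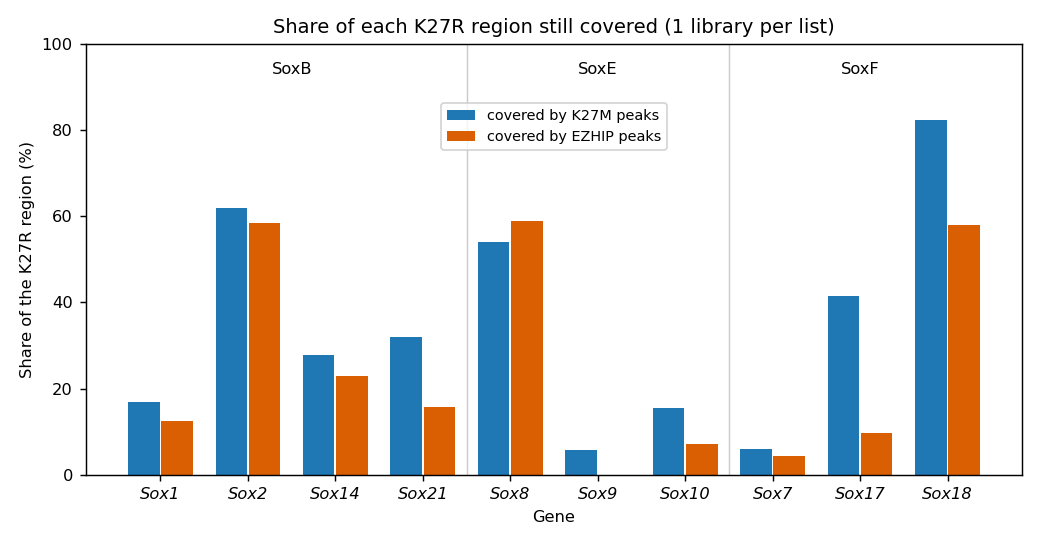
Bars give the share of the K27R region over each start site, in percent, that lay in K27M peaks or in EZHIP peaks, with 1 library per list. Sox2, Sox8 and Sox18 exceed 50% in both lists, and at Sox8 alone the EZHIP bar, 58.9%, is above the K27M bar, 54.1%.

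The share at Sox8 came mostly from other genes. Only 8.2 of the 171.4 kb of K27M cover and 11.4 of the 186.6 kb of EZHIP cover in its K27R region belonged to the peak over Sox8. The start sites of 11 other protein-coding genes lay in this region, and 10 of them were in both K27M and EZHIP peaks. The remaining one, Lmf1, 8.49 kb upstream of Sox8 and named here after its values were seen, was in neither. The 10 are not separate observations, since several shared a K27M peak of 80.4 kb and others a K27M peak of 37.6 kb. Among all genes in K27R regions, 29.9% lay in K27M peaks and 25.6% in EZHIP peaks. In the K27R region of Sox7, by contrast, the start sites of 4930578I06Rik, Rp1l1, Prss51 and Prss55 lay in no K27M or EZHIP peak, and Sox7 alone kept both. In the region of Sox21, Gm9376 lay in neither. The region of Sox1 held 4 other start sites, of which Gm5607 lay in both kinds of peak, Spaca7 in an EZHIP peak only, and 1700018L24Rik and A230072I06Rik in neither. The K27R regions of Sox2, Sox14, Sox9, Sox10, Sox17 and Sox18 held no other protein-coding start site.

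Noncoding genes overlapped a pair of the members. Sox2 lies inside Sox2ot, a long intergenic noncoding RNA gene on the same strand, whose own start site lay in a K27R region but in no K27M or EZHIP peak. Sox21 overlaps Gm4675, annotated on the opposite strand, whose start site lay in peaks of all 3 lists. Peaks carry no strand, so the peak at Sox21 cannot be assigned to either gene.

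Within a fixed window of 50 kb on each side of the start site, which sets genes of unequal length side by side, the SoxB genes again had the most cover. K27M peaks held 71.7 kb at Sox1, 46.8 kb at Sox21, 40.2 kb at Sox2 and 38.8 kb at Sox14, and EZHIP peaks held 51.5, 23.0, 37.8 and 28.0 kb. At the SoxE and SoxF genes K27M peaks held 5.4 kb (Sox9) to 16.6 kb (Sox8), and EZHIP peaks held 0 kb (Sox9) to 17.2 kb (Sox8). The K27R list held 32.8 kb at Sox17, the lowest, and the whole 100 kb at Sox1 and Sox21. In a wider window of 500 kb on each side, the K27M peak at the start site was the only one at Sox2, Sox9 and Sox17, and the EZHIP peak was the only one at Sox2 and Sox17. These peaks stood alone, whereas 15 K27M and 16 EZHIP peaks lay in the same window around Sox8.

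Where both inhibitors left a peak, the EZHIP peak as listed was usually the narrower and lay within the K27M peak. Of the 8 annotated genes with both, the EZHIP peak lay wholly inside the K27M peak at 6 and was narrower at 7. The median ratio of its width to that of the K27M peak was 0.714 over the 8 genes and 0.705 over all 1476 genes with both. It was lowest at Sox17 (0.235) and Sox10 (0.462) and highest at Sox2 (0.940) and Sox8 (1.39). Sox8 was thus the only gene of the 8 with a wider EZHIP peak, which 19.6% of all genes with both peaks had. At Sox7 the EZHIP peak ended 0.8 kb farther downstream than the K27M peak. Of the K27M cover within each K27R region, EZHIP peaks shared 94.0% at Sox2 and 93.8% at Sox8 but 23.5% at Sox17. Of the EZHIP cover, K27M peaks shared at least 86.2% at each of the 8 genes and 77.8% at Sox1. The EZHIP list was split into more peaks, with 4992 over 36.5 Mb against 3736 over 51.0 Mb in the K27M list. With peaks up to 10000 bp apart merged, the median widths were nearly equal, at 13.6 kb in K27M (9 genes) and 13.5 kb in EZHIP (8 genes).

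Over the gene bodies, Sox18 like the 3 annotated SoxB genes was covered to 100% in all 3 lists. Sox17 was covered to 100% in K27R and K27M and to 52.8% in EZHIP. K27M peaks covered 66.4% of the body of Sox7 and EZHIP peaks 77.8%. At Sox8 the values were 42.4% and 92.4%, so that for this pair the EZHIP list covered more of the gene. The order was the opposite at Sox10, with 70.2% and 28.4%, and at Sox9, with 48.1% and 0%. Sox10 was also the one gene with a body that K27R regions did not cover in full (76.4%), since its K27R region ended 7.32 kb into the gene.

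The same rules defined CpG islands for every gene (segments of the mm9 genome over 200 bp in length, with a G+C content of 50% or more and a ratio of observed to expected CG over 0.6). An island lay within 500 bp of the start site at 7 of the 9 annotated genes, all except Sox10 and Sox17, compared with 52.5% of all genes. All 7 kept a K27M peak and 6 of them an EZHIP peak. Of the 2903 genes with such an island and the start site in a K27R region, 52.6% had a K27M peak there, 44.5% an EZHIP peak and 39.8% both. The island at the start site was 2757 bp long at Sox21, 2537 bp at Sox2, 2475 bp at Sox1, 1796 bp at Sox9, 1440 bp at Sox18, 1330 bp at Sox14, 1308 bp at Sox8 and 947 bp at Sox7. Length at the start site therefore did not separate SoxB from the other genes.

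The K27R regions of the 9 genes held 24 islands, and 21 of them shared at least 1 bp with a K27M peak and 17 with an EZHIP peak, compared with 48.1% and 40.4% of all 6218 islands in K27R regions. The 3 islands that touched neither all lay in the region of Sox8. All 9 islands of Sox2, Sox14 and Sox21 and all 3 of Sox1 touched both kinds of peak. The SoxB genes had 2 to 4 islands in the K27M peak over the start site, with 3.00 to 4.81 kb of island in all, against 0.703 to 2.63 kb in the K27M peaks of the SoxE and SoxF genes. The number of islands did not set SoxB apart, since the K27M peaks of Sox9 and Sox17 held 3 and 2. A wider peak has room for a greater length of island, and the part of either in the other was not tested. At Sox10 the island began 0.539 kb downstream of the start site, and both peaks held all of it. At Sox17 an island of 1972 bp began 2.74 kb downstream and one of 661 bp ended 0.535 kb upstream. The K27M peak held both in full, while the EZHIP peak held 154 bp of the first and none of the second.

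The other Sox genes gave a comparison within the family. Of 9 that could be placed, 6 had the start site in a K27R region, 3 in a K27M peak and 2 in an EZHIP peak. The shares over all protein-coding genes were 30.1%, 9.02% and 7.73%. Of genes in K27R regions, 29.9% lay in K27M peaks and 25.6% in EZHIP peaks. Sox3, the X-linked SoxB1 gene that was not among the 10, lay in a K27R region of 263.4 kb and a K27M peak of 16.6 kb, and its start site was 0.395 kb from the nearest EZHIP peak. Sox6 and Sox13, SoxD genes, lay in all 3 lists, with K27M peaks of 10.6 and 15.4 kb and EZHIP peaks of 10.6 and 14.4 kb. Sox12, Sox5 and Sox30 lay in K27R regions only. Sox4 and Sox11, SoxC genes known from mesenchymal and neuronal precursors, and Sox15 lay in none, and the nearest K27R region was 66.4, 42.8 and 39.4 kb away, respectively. Sry was not placed, because no list had peaks on its chromosome. The K27M peak of Sox3 lay between those of the 4 SoxB genes above and those of the SoxE and SoxF genes, so that the wide SoxB peaks were a feature of those 4 genes and not of every SoxB gene.

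Lists of partners and targets of the Sox proteins were described in the same way, and they share some genes with the marker lists (Nes with the neural list, Cdh5, Kdr and Tek with the endothelial list). Of 12 SoxB partners and targets, 10 lay in K27R regions and 7 in both K27M and EZHIP peaks. Of all genes, 30.1% lay in K27R regions, 9.02% in K27M peaks and 7.73% in EZHIP peaks. Of genes in K27R regions, 29.9% lay in K27M peaks and 25.6% in EZHIP peaks. The 4 with the widest K27R regions were Otx2, a forebrain factor (282.6 kb, with a K27M peak of 44.4 kb and an EZHIP peak of 28.4 kb), Neurog1, a neuronal determination factor (215, 80.6 and 21.6 kb), Hes5, a Notch effector (212.4, 32.2 and 18.8 kb), and Fabp7, a radial glia protein, which had a K27R region of 206.8 kb and neither peak. Of these 4, Otx2, Neurog1 and Hes5 kept K27M peaks of 32.2 to 80.6 kb, and Fabp7 kept none.

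Of 16 SoxE partners and targets, 11 lay in K27R regions, 6 in K27M peaks and 4 in EZHIP peaks, beside 30.1%, 9.02% and 7.73% of all genes. Among genes in K27R regions the K27M and EZHIP shares were 29.9% and 25.6%. The 4 with the widest K27R regions were Foxd3, a neural crest factor (403.6 kb, with a K27M peak of 31.2 kb and an EZHIP peak of 19.2 kb), Matn1, a cartilage matrix protein (376.8 kb, with a K27M peak of 9.4 kb), Acan, the cartilage proteoglycan aggrecan (197.2, 11 and 6.4 kb), and Dct, a melanin enzyme (138.2 kb, with neither peak). Matn1 and Pax3, a neural crest and muscle factor with a K27R region of 67.8 kb and a K27M peak of 38.6 kb, were like Sox9 in lying in K27M peaks and in no EZHIP peak. At Matn1 the nearest EZHIP peak was 0.499 kb away and at Pax3 113 kb, both far closer than at Sox9.

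Of 12 SoxF partners and targets, 8 lay in K27R regions, 6 in K27M peaks and 5 in EZHIP peaks, beside 30.1%, 9.02% and 7.73% of all genes. The 4 with the widest K27R regions were Gata4, a heart and endoderm factor (343.2 kb, with a K27M peak of 103 kb and an EZHIP peak of 46.4 kb), Flt4, a lymphatic growth factor receptor (208, 12.8 and 11.8 kb), Foxa2, an endoderm factor (178.2, 54.8 and 45.2 kb), and Prox1, the lymphatic fate gene that Sox18 activates (77.6, 23.2 and 9.6 kb). Cldn5, an endothelial tight junction protein, lay in a K27R region of 5.8 kb and a K27M peak of 3.6 kb and in no EZHIP peak. The 3 endothelial markers in K27R regions (Cdh5, Kdr and Tie1) lay in neither a K27M nor an EZHIP peak, as did 66.5% of all genes in K27R regions, and the start site of Kdr was 0.482 kb from the nearest EZHIP peak. Of the 5 neural markers in K27R regions, 4 lay in both, and 1 of these was Sox2, itself a member of the set. Among all genes in K27R regions, 29.9% lay in K27M peaks and 25.6% in EZHIP peaks.

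**Figure D4:**
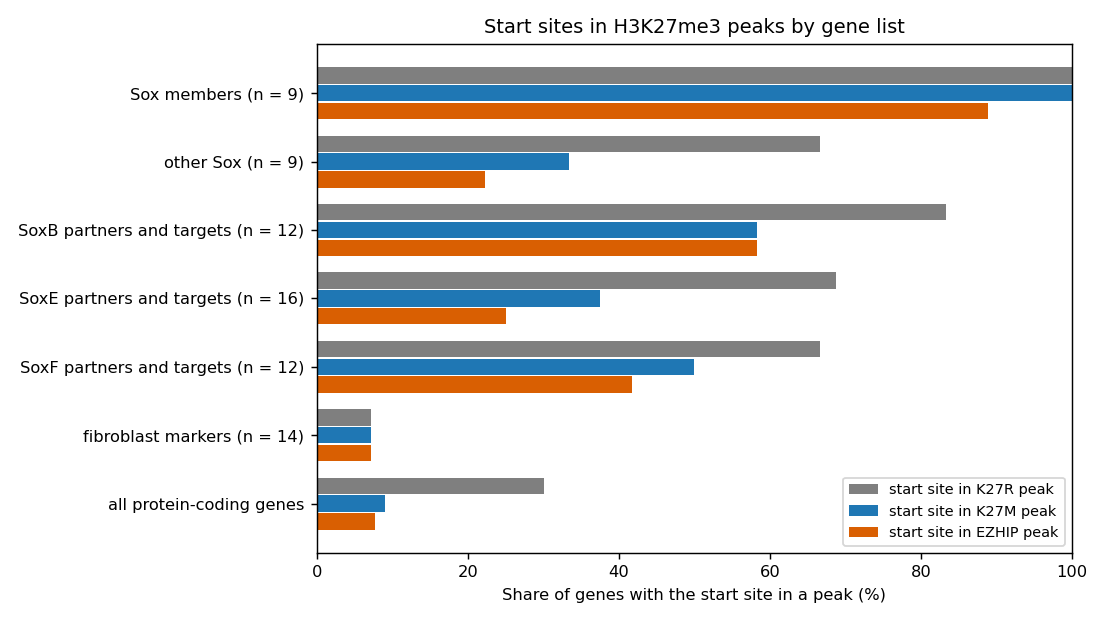
Bars give the share of the genes of each list, in percent, whose start site lay in a K27R, K27M or EZHIP peak (1 library per list), with all protein-coding genes at the bottom. The 9 annotated Sox genes stand at 100% in K27R and K27M, and the 14 fibroblast markers at 7.14% in each list.

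The protein-coding gene on another chromosome whose cover within 50 kb was nearest to each Sox gene was sought by the Euclidean distance over the 3 lists, in kb. It was Gsdma for Sox2 (distance 2.82 kb), Epha10 for Sox14 (1.87 kb), Irf8 for Sox21 (0.246 kb) and BC020535 for Sox1 (1.11 kb). It was Epo for Sox8 (1.20 kb), 1700019N19Rik for Sox9 (1.91 kb) and St8sia6 for Sox10 (0.833 kb). For the SoxF genes it was Kcnh5 for Sox7 (1.34 kb), 2310003C23Rik for Sox17 (0.839 kb) and Celf6 for Sox18 (0.893 kb). The likeness is in summed length over 1 library per list, and Epo, 1700019N19Rik and 2310003C23Rik had that cover without a K27M or EZHIP peak over their own start site. Sox2 had the largest distance of the 10 genes.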

How the data were processed

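H3K27me3 ChIP-Seq peak lists of 3 libraries (K27R, K27M and EZHIP, 1 each) were analysed. By the submitters' processing notes and the methods of the study, the authors aligned reads with Bowtie 1.0.0 to mm9 and to dm6, whose reads scaled samples, and called broad peaks with MOSAiCS-HMM. Their background library, and whether scaling entered the calls, are not given in the sources used here. The methods of the study do state caller settings, among them a maximum gap of 10000. Closer peaks were nonetheless listed apart. At Sox8, for example, 1 EZHIP peak ended 4.43 kb downstream of the start site and the next began at 10.2 kb. How the setting was applied to the lists is not known. The deposited lists hold the chromosome, start and end of peaks on 200 bp bins and no score or count. Genes were taken from GENCODE vM1 (the longest record per symbol), with the 5′ end of the record as the start site and widths in whole bins. Sox1 was placed by an exact match of its RefSeq promoter. Likeness used covered length within 50 kb. CpG islands were scored with 17 for each CG and -1 for other bases, with repeats not masked (23678 islands). Interval tools and the island finder were tested on simulated data.

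The members and lists were chosen with earlier results of these data known. Named were all members and other Sox genes, the 4 partners or targets per list with the widest K27R region, those in only 1 inhibitor list, the nearest gene by likeness, and neighbours where there were at most 5. No test was run, since each group had 1 library. Alternatives were minimum peak widths, merging of peaks, other windows and distances, any transcript start, means, longer islands and the inclusion of Sox1. Python 3.11.15, numpy 2.4.6, pandas 2.3.3, numba 0.67.0 and matplotlib 3.10.9 were used.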

Additional observations from a re-analysis of the deposited data

How the results depend on the processing

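Of 121 values recomputed under alternatives, 114 stayed within 1.5 times of the value reported and 7 did not. With peaks of at least 5000 bp, the median EZHIP width was 15.4 kb in place of 9.5 kb, because the EZHIP peaks of Sox10 (4.8 kb) and Sox17 (3.2 kb) were removed. The mean width was 19.1 kb in K27M and 14.9 kb in EZHIP, above the medians of 10.4 and 9.5 kb, since the SoxB peaks weigh more in a mean. Median cover in the window was 40 kb in K27R with 20 kb on each side, and 124 kb in K27R and 23.7 kb in K27M with 100 kb on each side, by the length of the window. With islands of at least 500 bp, 15 islands remained in the K27R regions. With Sox1 included, an alternative chosen after seeing the data, the median width in the K27R list was 120 kb, that in the K27M list 12 kb and that in the EZHIP list 11.4 kb. A stricter peak score could not be tried, because the lists hold no score. No paired analysis was possible because each group had 1 library. Depth and replicate spread are unknown, so a missing peak, such as that of Sox9 in EZHIP, means only that the caller listed none there.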
